A study of Mus musculus with 18 samples.

Results

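The 9 genes described here, Nav2, Rad51b, Mecom, Cux1, Fto, Atxn1, Vps13d, Atp2b2 and Cacna1c, are long mouse genes whose bodies held many of the peaks that were listed for 1 treatment arm. They were 9 of 21887 protein-coding genes and held 192 of the 33312 regions formed by all peak lists together. The genes were named with the counts of their regions already known, and a peak was taken as a member's when it overlapped the RefSeq span of the gene in mm10 or 1 kb on either side. The number of regions, their density and their division between arms are therefore given as a description, without a test.

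Open chromatin was measured by ATAC-seq, in which a transposase cuts and tags accessible DNA, in epithelial cells sorted from the lungs of adult c57/bl6 mice aged 6 to 12 weeks. All cells were CD31/45- Epcam+ Sca-1+, and the sort then divided them by CD24 into a negative (CD24neg below), a CD24low and a CD24high population. Each population came from mice given a G9a inhibitor (the G9ai arm) and from mice given vehicle, 3 per arm, which makes 18 samples in 6 groups. Not given in the sources used here were the compound, its dose and its schedule. With 3 mice per arm, the populations of an arm appear to share their mice, so populations are not independent samples. The labels do not say which libraries share a mouse, and comparisons between populations take no account of it. Of these samples, 10 peak lists were analysed: replicates 2 and 3 of the G9ai arm in all 3 populations, replicates 2 and 3 of the CD24low vehicle arm, and replicate 3 of the CD24neg and CD24high vehicle arms. The other 8 samples were not analysed here.

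G9a, encoded by Ehmt2, adds methyl groups to lysine 9 of histone H3, a mark of silent euchromatin. Blocking it is used to ask which closed regions depend on that mark. Peaks of nucleosome-free DNA mark promoters and enhancers, and long genes have long introns in which enhancers often lie, so a region within a gene body need not act on the gene around it. The 9 genes have unlike functions. Mecom, Cux1 and Atxn1 encode nuclear regulators of transcription, Rad51b a DNA repair protein, Fto an RNA demethylase, Cacna1c and Atp2b2 proteins that move calcium across the cell membrane, Nav2 a protein of the cytoskeleton and Vps13d a lipid transfer protein.

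The lists were short selections from the called peaks and differed in length between groups. The shortest had 2552 peaks and the longest 12985, out of 60603 to 98001 peaks called in a library as the peak numbers show. No read counts come with them, so depth is unknown. A region was taken as G9ai-only if all G9ai lists of a population held a peak there and its vehicle lists held none, and as vehicle-only in the reverse case. CD24neg and CD24high had 1 vehicle list each, so their vehicle-only regions have no replicate. The library names within the lists carried 4 prefixes, and each prefix belonged to 1 arm and replicate, so that prefix and arm cannot be told apart. Genes of the sort markers Epcam, Ly6a (Sca-1) and Cd24a held no listed region, which leaves them without a check of the sort. Pecam1 (CD31), a gene of the cells removed by the sort, held 4 CD24low G9ai-only regions. It also held 1 vehicle-only region in CD24neg and 1 in CD24high, and merged over all lists it held 5 regions. Ptprc (CD45) held 1 CD24neg vehicle-only region. Nkx2-1, a regulator of lung epithelium, held 1 vehicle-only region in CD24low and 1 in CD24high. The part of such cells in the counts was not tested.

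Few of the 192 regions lay at a promoter. A RefSeq promoter window, from 250 bases before to 50 bases after a start site in assembly GRCm38.p6, was overlapped by 5 regions. No window was used for Atxn1, so its 18 regions could not be placed at a start site of that gene. The 5 were 2.87% of the 174 regions of the 8 other genes, and 7.14% of all 33312 regions overlapped a window. For each of the 5 regions, 1 window is shown, because listed peaks of these 8 genes meet a start site there. The region at Dhrs3 also overlapped a second Dhrs3 window, chr4:144892827-144893126, by 36 bp, which is not shown. Each line gives 300 bases from RefSeq, 5′ to 3′ on the strand of the gene, with the part under the listed region in capitals.
Nav2 promoter, chr7:48958823-48959122, plus strand: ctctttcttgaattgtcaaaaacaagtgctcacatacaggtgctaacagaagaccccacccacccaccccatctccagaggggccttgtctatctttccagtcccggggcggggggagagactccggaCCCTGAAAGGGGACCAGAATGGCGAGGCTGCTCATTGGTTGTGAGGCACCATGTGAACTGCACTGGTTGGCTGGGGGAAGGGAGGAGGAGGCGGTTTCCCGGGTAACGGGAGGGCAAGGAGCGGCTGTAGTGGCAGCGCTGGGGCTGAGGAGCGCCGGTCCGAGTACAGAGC
Mecom internal promoter, chr3:30013155-30013454, minus strand: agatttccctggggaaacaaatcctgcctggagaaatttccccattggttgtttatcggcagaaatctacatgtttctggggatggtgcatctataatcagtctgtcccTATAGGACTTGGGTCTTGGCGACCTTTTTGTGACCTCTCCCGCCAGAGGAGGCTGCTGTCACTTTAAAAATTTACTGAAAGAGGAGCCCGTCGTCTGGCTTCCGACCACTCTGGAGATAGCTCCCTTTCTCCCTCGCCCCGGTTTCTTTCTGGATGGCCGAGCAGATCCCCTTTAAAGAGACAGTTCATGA
Dhrs3 promoter within Vps13d, chr4:144892577-144892876, plus strand: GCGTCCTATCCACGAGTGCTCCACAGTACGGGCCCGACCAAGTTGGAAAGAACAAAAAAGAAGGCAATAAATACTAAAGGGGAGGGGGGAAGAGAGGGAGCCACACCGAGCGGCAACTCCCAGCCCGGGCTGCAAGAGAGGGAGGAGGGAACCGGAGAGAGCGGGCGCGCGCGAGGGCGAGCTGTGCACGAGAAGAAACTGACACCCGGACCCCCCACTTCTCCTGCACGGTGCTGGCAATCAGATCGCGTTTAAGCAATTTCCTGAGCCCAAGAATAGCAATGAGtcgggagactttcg
Atp2b2 internal promoter, chr6:113891490-113891789, minus strand: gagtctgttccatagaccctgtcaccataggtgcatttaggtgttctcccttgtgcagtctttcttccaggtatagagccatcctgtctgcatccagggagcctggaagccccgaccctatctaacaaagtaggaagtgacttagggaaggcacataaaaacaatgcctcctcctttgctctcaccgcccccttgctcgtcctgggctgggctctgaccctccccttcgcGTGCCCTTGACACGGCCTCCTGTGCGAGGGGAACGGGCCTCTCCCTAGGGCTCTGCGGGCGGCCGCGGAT
Dcp1b promoter within the span of Cacna1c, chr6:119175003-119175302, plus strand: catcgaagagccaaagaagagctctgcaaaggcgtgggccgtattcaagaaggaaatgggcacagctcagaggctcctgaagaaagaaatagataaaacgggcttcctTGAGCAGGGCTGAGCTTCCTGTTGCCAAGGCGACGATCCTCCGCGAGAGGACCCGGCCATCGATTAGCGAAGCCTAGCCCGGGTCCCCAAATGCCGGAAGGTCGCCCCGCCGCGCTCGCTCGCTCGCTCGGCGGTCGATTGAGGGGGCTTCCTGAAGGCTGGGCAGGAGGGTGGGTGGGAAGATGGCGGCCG

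Of these 5 windows, 3 belonged to a member gene and 2 to an overlapping gene. The Nav2 window starts the longer transcripts of the gene and was listed in both CD24neg G9ai libraries, where its peak stood at percentiles 82.2 and 19.3 of the authors' scores. The Mecom window lies deep in the gene at the start of the shorter Evi1 form, which lacks the PR domain of the long form, and was listed in both CD24high G9ai libraries at percentiles 68.6 and 59.7. The Atp2b2 window was listed in CD24high vehicle replicate 3 alone, at percentile 1.42 of that list. The windows of both overlapping genes changed side between populations. The Dhrs3 window, at a gene for a retinaldehyde reductase, was vehicle-only in CD24neg and CD24high and G9ai-only in CD24low. The Dcp1b window, at a gene for an mRNA decapping factor, was G9ai-only in CD24low and vehicle-only in CD24high.

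The sequences were searched on both strands for the core promoter letters TATAAA, for CCAAT, for the GC box GGGCGG and for the AP-1 site TGACTCA, each counted whether or not it overlapped another. Neither TATAAA nor TGACTCA was in any of the 5 windows shown. These letters are in 12.6% and 4.66% of 21238 RefSeq promoters of the same length. Of the windows shown, CCAAT was in those of Nav2 and Mecom, against 38.2% of all promoters, and GGGCGG in those of Nav2 and Atp2b2, against 46.2%. Guanine and cytosine made up 60.7% of the Nav2 window, 49.7% of Mecom, 58.7% of Dhrs3, 58.7% of Atp2b2 and 61.7% of Dcp1b, with a median of 56.3% over all promoters. The Dhrs3 and Dcp1b windows held 21 and 25 CG dinucleotides, and those of Nav2, Atp2b2 and Mecom 12, 12 and 9, with a median of 13. The second Dhrs3 window, not shown, held CCAAT but not the other letters searched, with 45% guanine and cytosine and 10 CG dinucleotides. A match describes letters and is no evidence of a bound site.

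Over the 9 genes together, the G9ai lists held more regions in CD24low, and the vehicle lists more in the other two populations. CD24neg had 31 and 31 peaks in the 2 G9ai lists and 66 in the vehicle list. CD24low had 46 and 47 against 10 and 10, and CD24high 16 and 17 against 54. As regions, these were 31 G9ai-only and 66 vehicle-only in CD24neg, 45 and 10 in CD24low, and 14 and 52 in CD24high. The G9ai-only share was 32.0%, 81.8% and 21.2% of the members' regions, and 31.4%, 74.2% and 17.2% of all regions of CD24neg, CD24low and CD24high. The members thus ran with the lengths of the lists. When every list was cut to its 2552 highest-scoring peaks, the members held 20 and 20 peaks with G9ai and 18 with vehicle in CD24neg, 21 and 18 against 10 and 10 in CD24low, and 14 and 17 against 6 in CD24high. By peaks, the order in CD24neg and CD24high then turned round. By regions, it was 14 G9ai-only and 18 vehicle-only in CD24neg, 10 and 10 in CD24low and 14 and 6 in CD24high. The direction thus turned round in CD24high by both counts, in CD24neg by peaks only, and was kept in CD24low by peaks. The level regions of CD24low cannot show a loss of direction. A G9ai-only region needed a peak in both cut G9ai lists, while the vehicle lists there, at 2558 and 2552 peaks, were nearly or fully whole. In sorted populations, fewer open cells of a kind and less opening per cell cannot be told apart.

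At least 1 CD24neg G9ai-only region lay in 8 of 9 members, and in 10.6% of all protein-coding genes. CD24neg vehicle-only regions lay in 9 of 9, with 18.9% over all genes. In CD24low the counts were 9 of 9 for G9ai-only regions (15.9% of all genes) and 5 of 9 for vehicle-only regions (7.44%). In CD24high they were 6 of 9 (8.01%) and 9 of 9 (25.0%). The members were chosen on these counts, so nothing is read from them. By direction, all 9 members had more G9ai-only than vehicle-only regions in CD24low, and all 9 had fewer in CD24high. In CD24neg, 7 had fewer, Cux1 had more and Atp2b2 had equal numbers. Among other genes at least as long as the shortest member and holding a region, G9ai-only regions were the more numerous in 223 of 276 genes in CD24low, in 61 of 320 in CD24neg and in 37 of 336 in CD24high. Arms without overlap, in opposite order in at least 2 populations, were found in 9 of 9 members and 12.0% of all protein-coding genes with whole lists. At equal list length they were found in 3 members, Nav2, Rad51b and Atxn1, and in 3.00% of all genes.

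**Figure D1:**
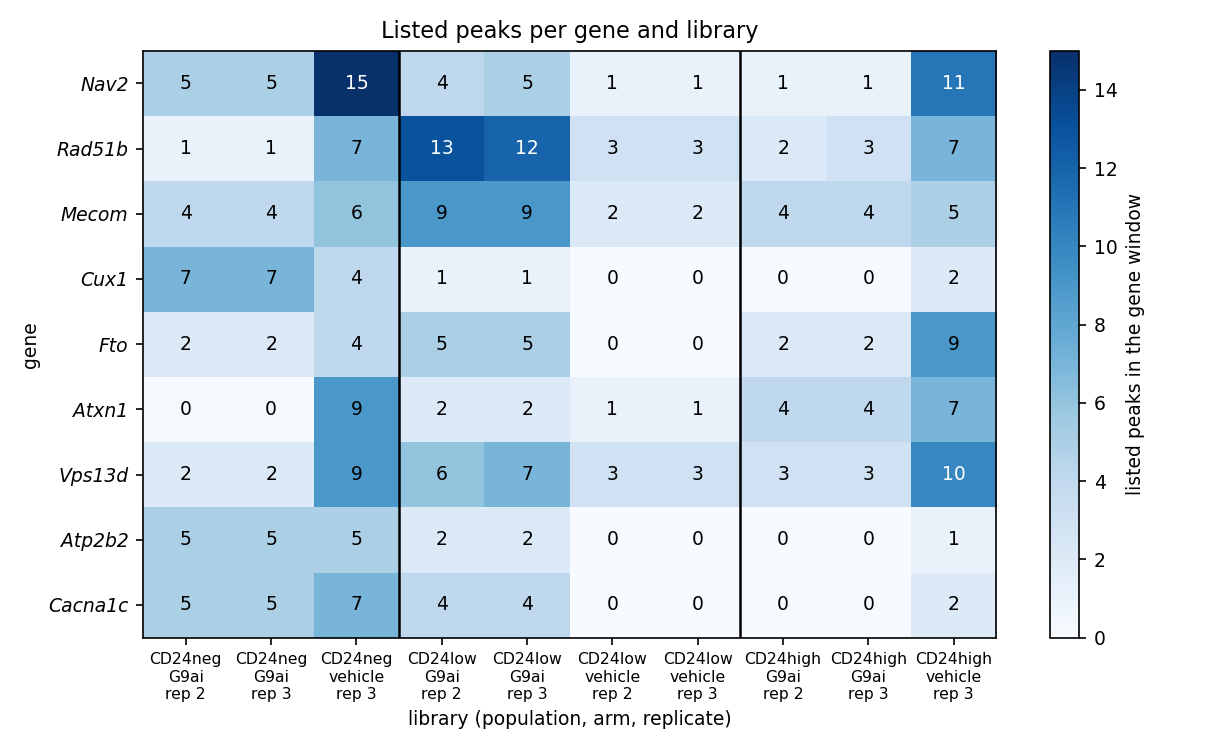
Listed peaks in each gene (rows) and each of the 10 libraries (columns, by population, arm and replicate), as the number printed in the cell and its blue shade. The highest cells are Nav2 in CD24neg vehicle (15) and Rad51b in CD24low G9ai (13 and 12), and replicate lists hold nearly equal numbers.

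Mecom encodes a zinc finger transcription factor of blood stem cells and other tissues. The gene spans chr3:29951296-30509759 and held 26 regions. It was the member with the most even counts over groups. The CD24neg lists held 4 and 4 peaks with G9ai and 6 with vehicle, the CD24low lists 9 and 9 with G9ai and 2 and 2 with vehicle, and the CD24high lists 4 and 4 with G9ai and 5 with vehicle. Both CD24low G9ai lists were above both vehicle lists, while the arms differed by 1 or 2 peaks in the other populations. With lists of equal length the counts were 1 and 2 against 2 in CD24neg, 4 and 4 against 2 and 2 in CD24low, and 4 and 4 against 1 in CD24high, where the order turned. The region with peaks in the most libraries, chr3:30332453-30332679, was listed in 5: vehicle replicate 3 of CD24neg and G9ai replicates 2 and 3 of CD24low and of CD24high. A region at chr3:30003916-30004033 was G9ai-only in CD24neg and vehicle-only in CD24low.

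Cux1 encodes a homeodomain protein with CUT repeats that acts mostly as a repressor. It spans chr5:136248135-136567590 and held 14 regions. The CD24neg lists held 7 and 7 peaks with G9ai and 4 with vehicle, the CD24low lists 1 and 1 with G9ai and none with vehicle, and the CD24high lists none with G9ai and 2 with vehicle. Cux1 was the member in which G9ai peaks outnumbered vehicle peaks in CD24neg, although the vehicle list there was the longer one, and at equal list length it held 4 and 4 against 1 there, 1 and 0 against none in CD24low and no peak in CD24high. None of its 14 regions was listed in more than 1 population. The region set by the naming rule, chr5:136382693-136382966, was listed in both CD24neg G9ai libraries at a mean score percentile of 78.1.

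Atxn1 encodes ataxin 1, a partner of transcriptional repressors whose glutamine expansion causes a spinocerebellar ataxia. It spans chr13:45549755-45964991 and held 18 regions. The CD24neg lists held no peak with G9ai and 9 with vehicle, the CD24low lists 2 and 2 with G9ai and 1 and 1 with vehicle, and the CD24high lists 4 and 4 with G9ai and 7 with vehicle. It was the only member without a CD24neg G9ai peak. A region at chr13:45965056-45965151, separated from the upper end of the span by 64 bp, was listed in 5 libraries: CD24neg vehicle replicate 3, CD24low vehicle replicates 2 and 3, and CD24high G9ai replicates 2 and 3. It was the sole CD24low vehicle-only region of the gene. With equal lengths the CD24high counts turned round, to 4 and 4 with G9ai and 1 with vehicle, while CD24neg held none against 1 and CD24low 1 and 0 against 1 and 1. A region at chr13:45837637-45837888 was G9ai-only in CD24low and in CD24high.

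Rad51b encodes a protein that works in the repair of DNA by homologous recombination. It spans chr12:79297282-79848260 and held 30 regions, the most after Nav2. The CD24low lists held 13 and 12 peaks with G9ai and 3 and 3 with vehicle, the CD24neg lists 1 and 1 with G9ai and 7 with vehicle, and the CD24high lists 2 and 3 with G9ai and 7 with vehicle. The CD24low G9ai lists held the highest counts of the gene and the CD24neg G9ai lists the lowest. Cut to equal length, the lists held 6 and 6 against 3 and 3 in CD24low, 1 and 1 against 3 in CD24neg, and 2 and 3 against none in CD24high, where the order turned. The 12 CD24low G9ai-only regions included chr12:79463294-79463855, at a mean score percentile of 97.6. Regions at chr12:79346338-79346574 and chr12:79559518-79559863 were G9ai-only in CD24low and vehicle-only in CD24high.

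Fto encodes a demethylase of N6-methyladenosine in RNA. Its introns are known for enhancers that act on the distant genes Irx3 and Irx5. It spans chr8:91313367-91668433 and held 19 regions. The CD24low lists held 5 and 5 peaks with G9ai and none with vehicle, the CD24high lists 2 and 2 with G9ai and 9 with vehicle, and the CD24neg lists 2 and 2 with G9ai and 4 with vehicle. With whole lists, the G9ai lists were the higher in CD24low and the lower in the other two populations. At equal list length the counts were 2 and 2 against 2 in CD24neg, 1 and 1 against none in CD24low and 1 and 2 against 1 in CD24high, so that order was lost. The region of highest mean score percentile in the 9 genes was in Fto, chr8:91494528-91494952, in both CD24low G9ai libraries at a mean percentile of 99.6. Regions at chr8:91371020-91371247 and chr8:91572734-91572904 were G9ai-only in CD24low and vehicle-only in CD24high. Irx3 and Rpgrip1l, which adjoins Fto, held no listed region, and Irx5 held 1, which was vehicle-only in CD24neg and in CD24high.

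Cacna1c encodes the pore of an L-type voltage-gated calcium channel, and Atp2b2 a pump that removes calcium from the cell. Their peaks had a like distribution over the populations, with most in CD24neg. Cacna1c spans chr6:118587240-119197384 and held 17 regions, with 5 and 5 peaks with G9ai and 7 with vehicle in CD24neg, 4 and 4 against none in CD24low, and none against 2 in CD24high. Atp2b2 spans chr6:113743831-114042613 and held 12 regions, with 5 and 5 against 5 in CD24neg, 2 and 2 against none in CD24low, and none against 1 in CD24high. At equal list length Cacna1c held 4 and 2 against 1 in CD24neg, which turned the order, and 2 and 0 against none in CD24low. Atp2b2 then held 4 and 4 against 3 in CD24neg and 1 and 1 against none in CD24low, and neither gene held a peak in CD24high. With whole lists, neither gene held a CD24low vehicle or a CD24high G9ai peak, which Cux1 lacked as well. One Atp2b2 region, chr6:114012821-114013116, was G9ai-only in both CD24neg and CD24low. Of the 17 Cacna1c regions, 2 also lay in the window of Dcp1b, which overlaps its upper end, and 15 did not.

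Nav2 encodes a navigator protein that binds the cytoskeleton in growing cell processes. It spans chr7:48959063-49610090, the longest span of the 9, and held 32 regions, the most of any protein-coding gene. The CD24neg lists held 5 and 5 peaks with G9ai and 15 with vehicle, the CD24low lists 4 and 5 with G9ai and 1 and 1 with vehicle, and the CD24high lists 1 and 1 with G9ai and 11 with vehicle. Vehicle lists were the higher in CD24neg and CD24high and the lower in CD24low. The order held in all 3 populations at equal list length, with 3 and 3 against 4, 2 and 3 against 1 and 1, and 0 and 1 against 3. The region chr7:49462343-49462728 was vehicle-only in CD24neg and CD24high and G9ai-only in CD24low. A region at chr7:49436616-49436845 was G9ai-only in CD24neg and vehicle-only in CD24low, the reverse order.

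Vps13d encodes a bridge protein that carries lipids between organelles and keeps mitochondria intact. It spans chr4:144871045-145195037 and held 24 regions. The CD24neg lists held 2 and 2 peaks with G9ai and 9 with vehicle, the CD24low lists 6 and 7 with G9ai and 3 and 3 with vehicle, and the CD24high lists 3 and 3 with G9ai and 10 with vehicle. Of the members, it held the most CD24low vehicle peaks together with Rad51b. At equal list length the CD24neg counts were 1 and 2 against 1, the CD24low counts were level at 3 and 3 against 3 and 3, and the CD24high counts were 3 and 3 against none, so none kept its order. Dhrs3 lies wholly within its span and accounts for 5 of the 24 regions, which leaves 19. In CD24high, 2 regions joined peaks of both arms, so that 1 region was G9ai-only and 8 were vehicle-only. One of these, chr4:144961344-144961958, was listed in 5 libraries and was G9ai-only in CD24low.

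**Figure D2:**
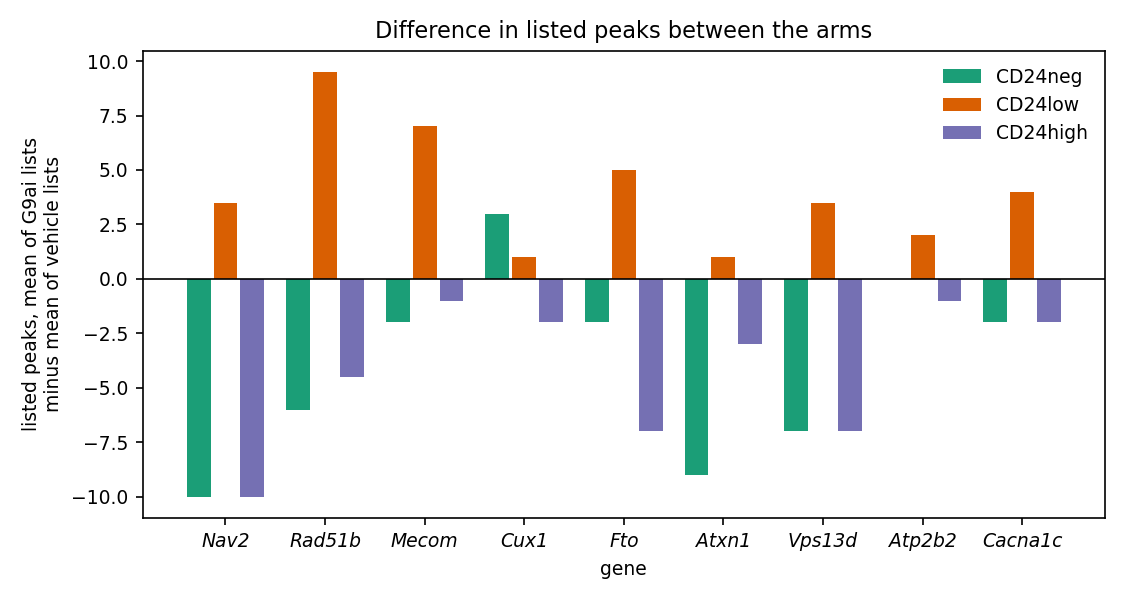
Difference in listed peaks between arms for each gene (x axis), as the mean of the G9ai lists minus the mean of the vehicle lists (y axis, peaks), with 1 bar per population starting at 0. All 9 CD24low bars lie above 0 and all 9 CD24high bars below it. In CD24neg, Cux1 lies above 0 and Atp2b2 at 0. The bars use whole lists of unequal length, and at equal length the order of the peaks over the 9 genes in CD24neg and CD24high turned round.

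Each gene was set beside the 200 protein-coding genes nearest to it in span. All 9 lay above the upper quartile of their set, at 4.30 to 11.9 times its median number of regions per 100 kb. Vps13d was the densest member, with 7.41 regions per 100 kb against a median of 0.673, and was first among 201 genes. Its count includes the 5 of 24 regions that also lay in the window of Dhrs3. The 19 others, over 324 kb, are less dense than the highest gene of the set, at 6.38 per 100 kb. Without the 5, Vps13d would thus not be first, though regions shared with overlapping genes were not taken from the set. Nav2 was also first, with 4.92 against 0.415. Rad51b (5.44 against 0.477) and Mecom (4.66 against 0.466) were second, and Fto was in place 4 (5.35 against 0.652). Atxn1 was in place 8 (4.33 against 0.572) and Cacna1c in place 10 (2.79 against 0.415). The shortest members were less set apart. Cux1 was in place 22 (4.38 against 0.782), and Atp2b2 in place 24 (4.02 against 0.934).

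The order differed by group. Nav2, Cux1, Atp2b2 and Cacna1c were each first of their 201 genes for CD24neg G9ai-only regions, where Atxn1, with none, was in place 72. Nav2 and Vps13d were first for CD24neg vehicle-only regions. Rad51b and Mecom were first for CD24low G9ai-only regions, Vps13d for CD24low vehicle-only regions, and Nav2 for CD24high vehicle-only regions. No member was first of its 201 genes for CD24high G9ai-only regions, in which Atxn1 was in place 3 and Mecom in place 4. With genes within 10% of the span as the set instead, the first places named here were kept and others were added. Among those added were Atxn1 and Mecom for CD24high G9ai-only regions. Atp2b2 was in place 104 for CD24high vehicle-only regions, near the middle of its set.

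The high counts were not shared by long genes at large. Of 550 other protein-coding genes at least as long as Atp2b2 (299 kb), 119 held no region, and the median was 2. The 9 members had a median of 19 regions. All 21887 protein-coding genes had a median of 0, and the 9605 of them with a region had a median of 2. At the lower edge of the members lie Atp2b2 with 12 regions and Cux1 with 14, and 152 other protein-coding genes held at least 12. A further 39 held 11. At the upper edge, Maml3 (27 regions) stood between Rad51b and Mecom, and Arhgap26 (24 regions) was level with Vps13d. Nav2, Rad51b, Mecom and Vps13d are thus among the genes with the most regions, while many genes match Cux1 and Atp2b2.

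**Figure D3:**
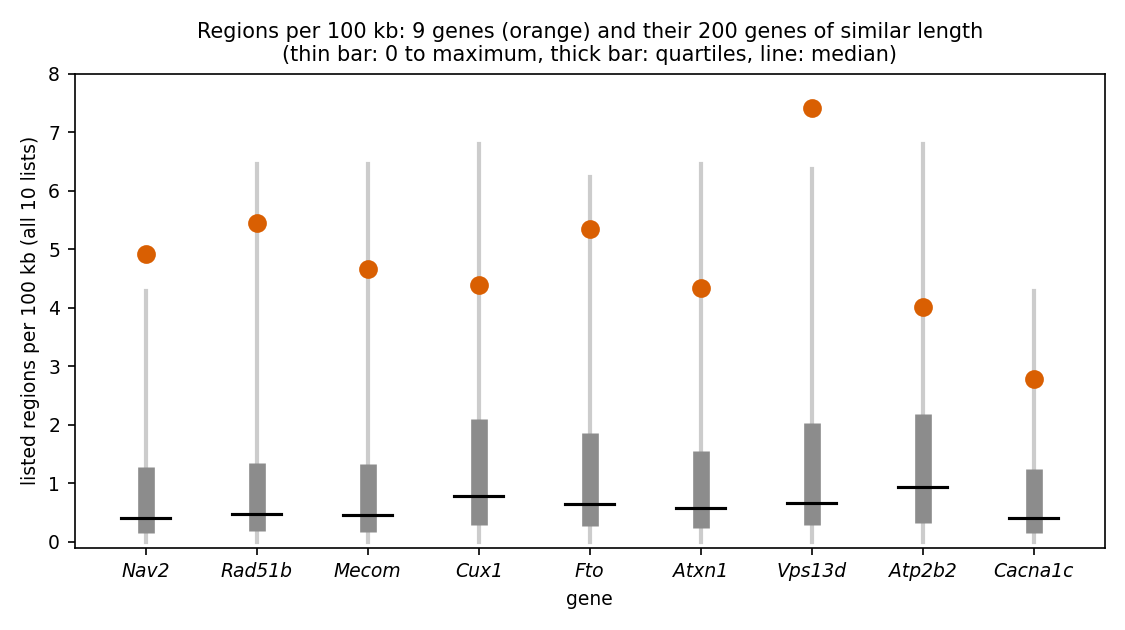
Regions per 100 kb from all 10 lists (y axis) for each gene (x axis, orange point) and its 200 genes of similar length (thin bar from 0 to the maximum, thick bar between quartiles, line at the median). Nav2 and Vps13d lie above the maximum of their sets and the other 7 between the upper quartile and the maximum.

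The regions were spread along the bodies of the genes, with local groups. When each span was cut into 10 equal parts, Nav2, Rad51b, Fto and Atp2b2 had a region in 9 parts, Mecom, Vps13d and Cacna1c in 8, and Cux1 and Atxn1 in 7. Genes of similar length with at least 5 regions filled a median of 5 or 6 parts, but those held a median of 8 or 9 regions, fewer than any member, and more regions fill more parts. Those within 5 regions of the member's own number filled a median of 7 for Cux1, 8 for Fto and Atxn1, and 6 for Atp2b2 and Cacna1c. There were 18 to 48 such genes for each. Rad51b, Mecom and Vps13d had 1 to 3 such genes, whose medians of 10, 9 and 9.5 were above the member, and Nav2 had none. The largest stretch without a region was 41.2 kb in Vps13d, 44.9 kb in Fto and 61.4 kb in Atp2b2. It reached 128 kb in Nav2, 130 kb in Cux1 and 139 kb in Cacna1c, which was 40.6% of the span in Cux1. Genes alike in length and number of regions had a median of 26.1% for Cux1. In Fto, Atxn1, Atp2b2 and Cacna1c the share was below that median of like genes. Of the 192 regions, 30 (15.6%) lay within 1 kb of another one, and 15.2% of all regions did.

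Local groups differed between genes. In Cux1, 7 of 14 regions lay within 50 kb, starting 135 kb from the lower end, and in Atp2b2 6 of 12, starting 167 kb from it. Both genes have short spans and few regions, which raises such shares. Genes of similar length held a median of 44.9% and 45.8% of their regions in their densest 50 kb. The regions of Atp2b2 were otherwise far apart, with a median distance of 19.4 kb to the nearest other region, the largest of the 9 genes. The densest 50 kb of Vps13d held 8 of 24 regions, and a second group of 4 lay between chr4:144892245 and 144894629 around the start of Dhrs3. In Nav2 the densest 50 kb, 478 kb from the lower end, held 7 of 32 regions and peaks of 5 of the 6 groups, all but CD24high G9ai. The densest 50 kb of Fto held 7 of 19, from CD24low G9ai, CD24high vehicle and CD24neg vehicle lists. Rad51b and Mecom had 6 each of 30 and 26, and Atxn1 and Cacna1c 5 each of 18 and 17.

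Along the direction of transcription, known here for 8 genes, the spans were cut into 3 equal parts. From the 5′ end, the parts held 60, 65 and 49 regions in all. Nav2 had 6, 12 and 14, so that its regions lay more toward the 3′ end, and Vps13d had 5, 9 and 10. Cux1 had 6, 7 and 1, and Cacna1c had 7, 8 and 2, with few in the last part. Rad51b (12, 9 and 9), Mecom (10, 9 and 7), Fto (9, 6 and 4) and Atp2b2 (5, 5 and 2) lay between. Of the 192 regions, 3 were within 1 kb of an end of their gene. Of the 174 regions of the 8 genes with known start sites, 11 were within 5 kb of one. Such zones are a small part of the spans, and their share of the length was not counted. The counts thus do not show that ends or starts held few regions for their length.

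**Figure D4:**
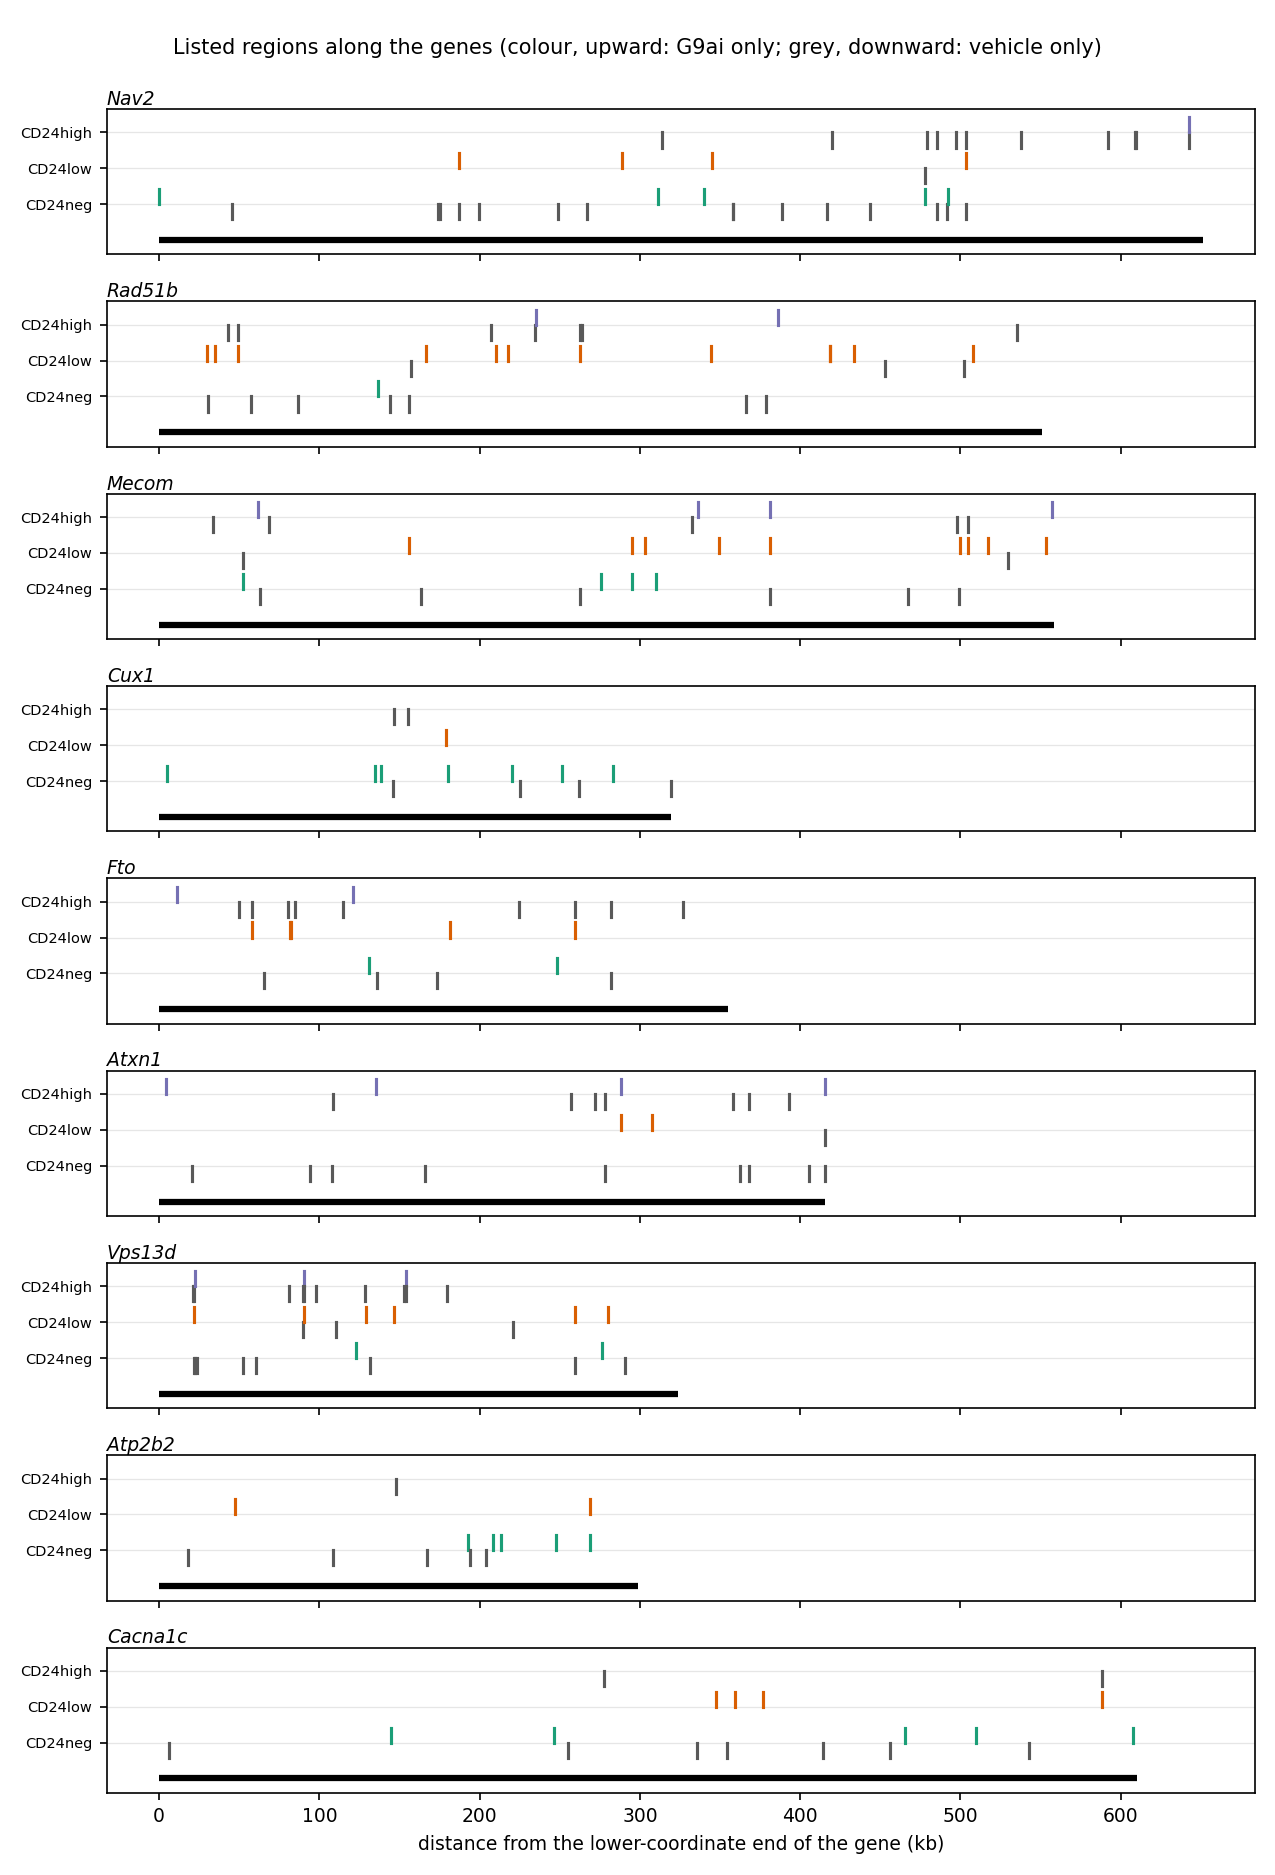
Listed regions along each gene, by distance from the lower-coordinate end (x axis, kb), with 1 row per population and the gene as a black bar. Coloured ticks upward are G9ai regions and grey ticks downward vehicle regions. The 2 CD24high regions of Vps13d with peaks of both arms are drawn both ways. Regions of all groups are mixed along the spans, and Cux1 has a stretch of 130 kb without one.

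Most regions belonged to 1 population. Of 192, 169 were listed in 1 population, 19 in 2 and 4 in all 3, so that 23 (12.0%) were shared, against 14.5% of all regions. Among the shared regions, 7 kept 1 arm and 16 involved both. CD24low and CD24high shared 12, of which 8 were G9ai-only in CD24low and vehicle-only in CD24high and 1 was the reverse. CD24neg and CD24low shared 9, of which 5 were vehicle-only in CD24neg and G9ai-only in CD24low, and 2 the reverse. CD24neg and CD24high shared 9, of which 6 were vehicle-only in both. Opposite arms made up 75.0%, 77.8% and 33.3% of these pairs, and 60.3%, 53.7% and 35.5% over all regions. The 4 regions of all 3 populations were those of Nav2, Mecom and Atxn1 named above and the Dhrs3 promoter region in Vps13d.

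The peak numbers in the lists show how many peaks were called around the listed ones. Between the first and the last listed peak of a gene, in the 30 pairs of a gene and a library with at least 5 listed peaks, called peaks were 1.44 to 6.98 times as dense as in the whole library, with a median of 3.65. In CD24high vehicle replicate 3, Vps13d had 41 called peaks over 158 kb, of which 10 were listed. In CD24neg vehicle replicate 3, Nav2 had 66 over 458 kb, of which 15 were listed, and Atp2b2 had 9 over 186 kb, of which 5 were listed, the lowest density of the 30. Such a stretch starts and ends at a peak, which raises its density. The stretches came from G9ai lists of CD24neg and CD24low and from vehicle lists of CD24neg and CD24high. No gene had 5 listed peaks in a CD24low vehicle or CD24high G9ai list, so only CD24neg gave stretches of both arms. Counted between the listed peaks that flank each gene, which takes in DNA outside it, called peaks were denser than in the median gene of similar length in 88 of 90 pairs of a gene and a library. The genes were chosen for listed peaks, which are themselves called peaks and bound the stretch, so nothing is read from this count. The 90 pairs are the same 9 genes in related lists and are not independent.

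The share of called peaks that was listed depended on the stretch counted. Between flanking listed peaks, which cover 353 kb to 8975 kb, the share was above that of the library in 26 of 90 pairs. From the first to the last listed peak, it was above it in 61 of the 63 pairs with at least 2 listed peaks, and in the same 63 pairs the first measure was above it in 26. The second measure is bounded by listed peaks and reached 100% in 2 pairs. The first measure is biased downward and the second upward, so the members' own share lies between them.

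**Figure D5:**
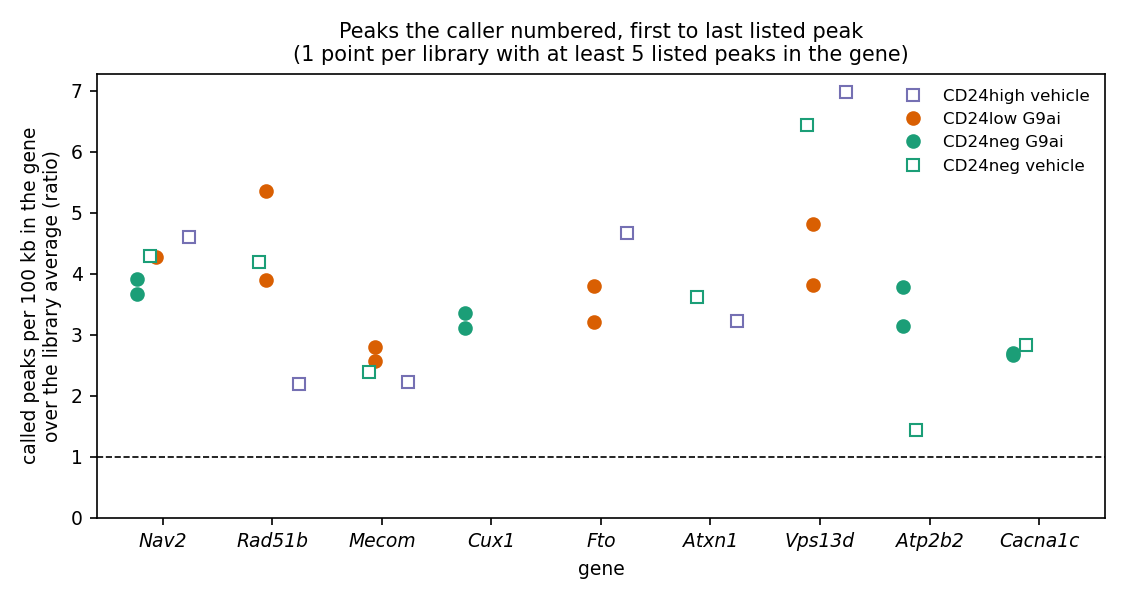
Called peaks per 100 kb between the first and last listed peak of a gene, divided by the average of the library (y axis, ratio), for each gene (x axis) and each library with at least 5 listed peaks in it. Filled circles are G9ai and open squares vehicle, coloured by population. All 30 points lie above 1, from 1.44 (Atp2b2, CD24neg vehicle) to 6.98 (Vps13d, CD24high vehicle).

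Relatives of the 9 genes by family were counted from a list chosen by name. Of 38, 32 held a region, 107 in all, with 1.89 regions per 100 kb over a summed span of 5651 kb. Of all protein-coding genes, whose median span was 17.2 kb, 43.9% held a region. These shares were not matched for length. The median relative held 2 regions, and only Prdm16, a zinc finger regulator of the Mecom family, held more than 10, with 18. Prdm16 held 2 G9ai-only and 5 vehicle-only regions in CD24neg, 4 and 0 in CD24low and 1 and 7 in CD24high, the order seen in Fto. Some long relatives held few regions: Nav3, longer than Nav2 at 774.5 kb, held 1, and Vps13b, at 560.1 kb, held 2. Nav1 held 4 CD24neg vehicle-only regions and at most 1 in any other group. Cacna1h held 5 CD24high vehicle-only regions, and Cux2 held 4.

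Among the other relatives with a region were Rad51c, Rad51d and Xrcc3 of the recombination family, Prdm1 and Prdm2, Satb1, Onecut1 and Onecut2 of the homeodomain genes with CUT repeats, and the demethylases Alkbh1 and Alkbh5. They also included Atxn1l, Atxn2 and Atxn7, the lipid transfer genes Vps13a and Vps13c, the calcium pumps Atp2b1, Atp2b3 and Atp2b4, and the calcium channels Cacna1a, Cacna1b, Cacna1d, Cacna1e, Cacna1g and Cacna1s. Xrcc2, Dmc1, Atxn3, Cacna1f and Cacna1i were among those that held none. In CD24low, 14 of the 38 held a G9ai-only and 3 a vehicle-only region, against 15.9% and 7.44% of all protein-coding genes. In CD24neg the counts were 10 and 18, against 10.6% and 18.9%, and in CD24high 9 and 20, against 8.01% and 25.0%. The shares of all genes were not matched to the relatives for length, so nothing is read from the difference. Zfyve26, which adjoins Rad51b, held no region within the window of Rad51b.

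Outside the families, the genes most like each member were taken from 218 protein-coding genes of at least 100 kb and 10 regions, by the Bray-Curtis distance between the numbers of regions per 100 kb in the 6 groups (0 for the same values, 1 for none in common). The closest pair was Mecom and Sipa1l1, at 0.072. Vps13d was closest to Trak1 (0.093), Fto to Prdm16 (0.104), Rad51b to Ablim1 (0.108) and Nav2 to Stk39 (0.122). Atp2b2 and Cux1 were both closest to Rbms1, at 0.126 and 0.147. Atxn1 was closest to Itpr1 (0.158) and Cacna1c to Magi1 (0.176). Rbms1 shared with Cux1 and Atp2b2 the absence of CD24low vehicle-only and CD24high G9ai-only regions.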

How the data were processed

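ATAC-seq peak lists of 10 of 18 samples were used. The labels' protocols cite a published ATAC-seq method, and FastQC, Bowtie2, MACS2 and the build mm10 are named, per the submitters' processing notes. Not given in the sources used here were versions, settings, read shifting, the peak threshold and how listed peaks were selected. Each deposited list gives intervals with peak names and the authors' score, whose scale is not given and which served only to rank peaks within a list. Names show that peaks were called per library. Since no read counts come with the lists, depth and counting error are unknown.

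Repeated lines were dropped and peaks overlapping by at least 1 bp were merged into regions. Protein-coding genes and promoters came from RefSeq tables of GRCm38.p6, the assembly of mm10; promoter windows were found for 8 of the 9 genes, and Atxn1 is named only. Without exon annotation, regions were not divided into exonic and intronic. Called peaks between listed ones were counted from peak numbers, which rose along each chromosome in all 10 lists. Groups came from sample labels. The 9 genes, the family lists and the descriptions were chosen with earlier results of these data known; promoter sequences, peaks called between the first and last listed peak, close opposite-arm regions, the counts per gene at equal list length and their share over all genes were added after the lists were seen. No test was made: the genes were chosen on these values, and the lists were selected between arms and replicates, so spread between replicate lists is no measure of biological error. Named genes were the members, coding genes overlapping their windows, the fixed relatives (some of which are counted but not reported by name here), and the closest gene to each member; named regions were those in the most libraries, then of the highest mean score rank, and other regions were named after their values were seen. Counting was checked on planted peaks. Alternatives covered windows, overlap, score, list length, merging, repeats, left-out libraries, sets of similar length, parts and windows of the span. Python 3.11.15, numpy 2.4.6, pandas 2.3.3 and matplotlib 3.10.9 were used.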

Additional observations from a re-analysis of the deposited data

Results flagged for a closer look

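With whole lists, the difference between arms had opposite signs in different populations for the 9 genes together and for each gene, as in 12.0% of all protein-coding genes. The value is the mean number of listed peaks in the G9ai lists minus that in the vehicle lists, subtracted between populations. Every list of one arm lay above every list of the other, in opposite order in the populations compared, and the difference between populations was not tested. For the 9 genes together, CD24neg less CD24low was -71.5 peaks and CD24low less CD24high was 74 peaks. CD24neg less CD24low was -15.5 for Rad51b, -13.5 for Nav2, -10.5 for Vps13d, -10 for Atxn1, -9 for Mecom, -7 for Fto and -6 for Cacna1c. CD24low less CD24high was 14 for Rad51b, 13.5 for Nav2, 12 for Fto, 10.5 for Vps13d, 8 for Mecom, 6 for Cacna1c, 4 for Atxn1, 3 for Atp2b2 and 3 for Cux1. Cux1 alone also differed in sign between CD24neg and CD24high, by 5 peaks. The lengths of the whole lists ran the same way: 7379 and 7361 peaks with G9ai against 2558 and 2552 with vehicle in CD24low, 4173 and 4149 against 8870 in CD24neg, and 2798 and 2817 against 12985 in CD24high. At 2552 peaks per list the 9 genes held 20 and 20 against 18 in CD24neg, 21 and 18 against 10 and 10 in CD24low, and 14 and 17 against 6 in CD24high, so the signs no longer differed for the 9 genes together. Opposite signs without overlap were then found in 3 genes, Nav2, Rad51b and Atxn1. In Atxn1 they lay between CD24neg (none against 1) and CD24high (4 and 4 against 1), which had the same sign with whole lists. Its CD24low lists then overlapped, with 1 and 0 against 1 and 1. In CD24high, Rad51b (2 and 3 against none), Atxn1 (4 and 4 against 1), Mecom (4 and 4 against 1) and Vps13d (3 and 3 against none) turned to more G9ai peaks, and in CD24neg so did Cacna1c (4 and 2 against 1).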

How the results depend on the processing

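The numbers of regions in the 9 genes depended on how many peaks of each list were kept. With the higher-scoring 50% of peaks of each list, they were 7 G9ai-only and 35 vehicle-only in CD24neg, 20 and 1 in CD24low, and 4 and 19 in CD24high, with the same arm the higher in each population. With each list cut to its 2552 highest-scoring peaks, the length of the shortest, the numbers were 14 and 18 in CD24neg, 10 and 10 in CD24low and 14 and 6 in CD24high. By regions, the arms were then level in CD24low, turned round in CD24high and kept their order in CD24neg. The level in CD24low cannot show a loss of direction. A G9ai-only region needed a peak in both cut G9ai lists, while the vehicle lists there were nearly or fully whole. By peaks, the members held 20 and 20 with G9ai against 18 with vehicle in CD24neg and 14 and 17 against 6 in CD24high. In CD24low they held 21 and 18 against 10 and 10, so the difference in peaks remained there. At this length, 9 of 9 members stayed above the upper quartile of genes of similar length. The listed share of called peaks was above that of the library in 26 of 90 pairs of gene and library between flanking listed peaks, all 26 among the 63 pairs with at least 2 listed peaks, and in 61 of those 63 from the first to the last listed peak inside the gene. With 1 kb around either gene end in place of the whole span, the protein-coding genes with a G9ai-only and a vehicle-only region were 815 and 1426 in CD24neg, 1322 and 679 in CD24low and 677 and 1978 in CD24high, against 2319 and 4127, 3489 and 1628, and 1753 and 5461; 0 to 2 of the 9 members then held a region of a given group. Without 1 library in turn, the region counts ranged from 31 to 31 and 66 to 66 in CD24neg, 45 to 47 and 10 to 10 in CD24low, and 15 to 15 and 52 to 53 in CD24high, and the members above the upper quartile of genes of similar length from 9 to 9. Of the alternatives for the values that answer a comparison, 65 kept within 1.5 times the main value and 17 did not. The lists hold selected peaks without depth, the CD24neg and CD24high vehicle arms have 1 list each, and a region in a gene is assigned by position only. No paired analysis was possible because the results come from no test and 2 vehicle arms have 1 list.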

Other observations

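Some regions of opposite arms lay side by side in the same population. In Nav2, a CD24neg G9ai-only region at chr7:49450986-49451141 began 73 bp after a CD24neg vehicle-only region at chr7:49450831-49450912. In Rad51b, a CD24high G9ai-only region at chr12:79532173-79532536 began 70 bp after a vehicle-only region at chr12:79532027-79532102, and in Nav2 another such CD24high pair was 199 bp apart. A CD24low pair in Vps13d was 499 bp apart. These pairs were picked after their values were seen. Within 500 bp of a vehicle-only region of the same population lay 1 of 31 G9ai-only regions of the 9 genes in CD24neg, 1 of 45 in CD24low and 2 of 14 in CD24high, against 3.79%, 1.27% and 5.20% of all G9ai-only regions. For such pairs, a listed region of 1 arm does not show that the surrounding DNA was without a listed peak in the other.

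Outside the 9 genes, Maml3, a coactivator of Notch signalling, held 27 regions, of which 16 were CD24high vehicle-only. It was singled out after its values were seen.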
